A study of Mus musculus with 12 samples.

Results

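Genes of mitochondrial and peroxisomal fatty acid oxidation, together with genes known as targets of the peroxisome proliferator-activated receptors (PPARs), were examined in BV2 cells, an immortalised mouse microglial line. The group was a list of 35 gene symbols taken from textbook knowledge of the pathway, and 31 of them could be analysed among 22180 genes. The list was chosen with earlier results of these data known. Ucp2 and Acsl1 were not in the platform annotation used here, and Cpt1b and Acsl3 had only features listed with several gene symbols, so these 4 were not analysed here.

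The cells were wild type and every culture contained 1.5% DMSO. Each of 4 treatments was measured on 3 arrays. Vehicle cells (called DMSO) had DMSO alone for 3 h, and the LPS cells had vehicle for 2 h and then lipopolysaccharide, a bacterial activator of Toll-like receptor 4, for 1 h. Telmisartan cells had the drug for 3 h without LPS, and Telmisartan+LPS cells had the drug for 2 h before LPS was added for 1 h. Telmisartan blocks the angiotensin II type 1 receptor and is also a partial activator of PPAR gamma. Its dose and the dose of LPS are not given in the sources used here. All arrays came from a single cell line, which limits what they can show of microglia in tissue.

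PPARs are nuclear receptors that bind fatty acids or drugs, pair with a retinoid X receptor and bind response elements near their target genes. Many targets serve the uptake, storage and oxidation of fatty acids: fatty acyl chains are moved into the mitochondrion by the carnitine shuttle and shortened by repeated rounds of dehydrogenation, hydration, a second dehydrogenation and thiolysis. Electrons from the first step pass through the electron transfer flavoprotein to the respiratory chain. In macrophages and microglia this pathway is commonly studied beside the glycolytic metabolism that follows Toll-like receptor activation.

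Array medians ran from 4.08 to 4.13 on the log2 scale, and any pair of arrays correlated at 0.995 to 0.9974 across genes. Of 13 microglia and macrophage markers, 11 exceeded the background level used here, and P2ry12 and Sall1 did not. Of the markers of other cells, 1 of 5 astrocyte (Aldoc), 1 of 5 neuron (Rbfox3), 1 of 4 oligodendrocyte (Cldn11), 1 of 5 fibroblast (Col1a1) and 0 of 5 adipocyte markers exceeded it. Background was taken as 4.11 (log2), the 95th percentile of the mean signals of 1108 features for olfactory receptor genes. By principal components, Telmisartan+LPS replicates 1 and 3 lay apart from the other arrays, and the count of called genes among the 31 was 0 in every comparison, with and without each of them. Nothing beyond the labels' word "independent" ties an array to a culture of its own, so the p-values and intervals rest on array-to-array spread, which may be technical.

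The fatty acid oxidation and PPAR target genes showed no called change with telmisartan or with LPS. None of the 31 genes passed the test (limma, two-sided, Benjamini-Hochberg adjusted p under 0.05 over all 22180 genes) in any of 7 comparisons. Among all genes the share called was 0.428% for LPS against DMSO, 0% for Telmisartan against DMSO, 0% for Telmisartan+LPS against LPS and 0.261% for Telmisartan+LPS against Telmisartan. It was 0% for the interaction, in which the LPS effect of vehicle cells is subtracted from that of telmisartan cells, 0.00451% for the telmisartan effect averaged over both LPS states and 0.667% for the LPS effect averaged over both drug states. With shares this low, 0 calls among 31 genes lies near the background and does not set the group apart. In extracts of whole cultures, fewer cells expressing a gene and less RNA per cell cannot be told apart.

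The 95% intervals give, gene by gene, the range of change left by the array-to-array spread. They were not adjusted for the number of genes and are not the rule by which a gene was called. If the arrays are not separate cultures, they leave out variation between cultures. For the averaged telmisartan effect, the 95% interval of each of the 31 genes lay within a 1.3-fold change in either direction, and the largest estimate was 1.11-fold (Acot1). For the averaged LPS effect this held for 30 of 31, the exception being Acot1, whose upper bound was 1.36-fold. In the separate comparisons, all 31 intervals lay within 1.5-fold for Telmisartan against DMSO, for Telmisartan+LPS against LPS and for Telmisartan+LPS against Telmisartan. For LPS against DMSO 30 of 31 did, with Acot1 reaching 1.57-fold at its upper bound. The interaction was known less well, with 25 of 31 intervals inside 1.5-fold. These bounds are on the RMA scale, which can understate a change where a signal is near background, as it was for 6 of the 31 genes (Ehhadh, Pdk4, Angptl4, Ucp3, Acot1 and Pltp).

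**Figure D1:**
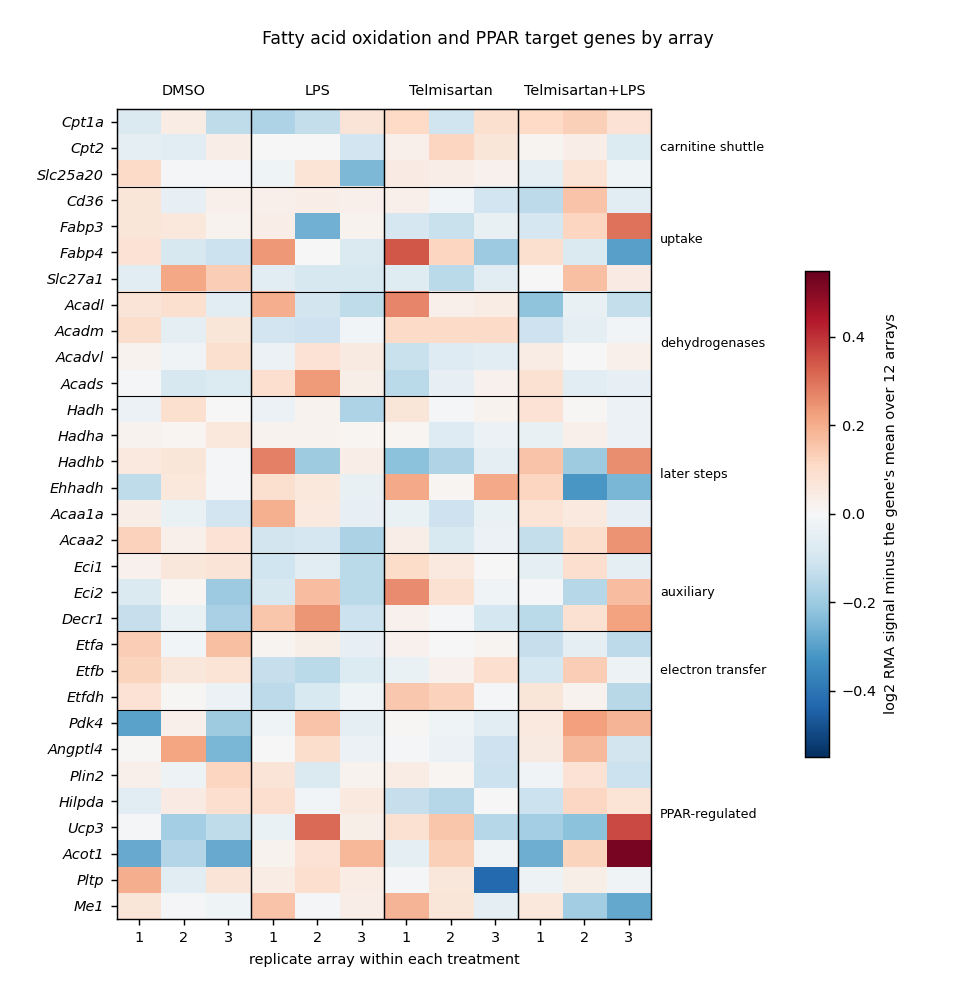
Each cell is the log2 RMA signal of 1 gene on 1 array minus that gene's mean over 12 arrays, with genes in rows by role and arrays in columns by treatment. Of 372 values, 352 lie within 0.25 of the gene's mean; the extremes are Acot1 at 0.52 (Telmisartan+LPS replicate 3) and Pltp at -0.43 (Telmisartan replicate 3).

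The members varied little between replicates. The within-group SD of a gene ran from 0.0307 (Hadha, the alpha subunit of the mitochondrial trifunctional protein) to 0.211 (Ucp3, an uncoupling protein known from muscle). Its median was 0.0943, against 0.117 over all genes. These medians were not matched for signal level. Of the 31 genes, 25 lay above the background of 4.11, whereas the array medians of 4.08 to 4.13 lay close to it. The median difference of the 31 genes was -0.01 for LPS against DMSO, where that of all genes was -0.01 as well, and 0.00 against -0.01 for Telmisartan against DMSO. It was 0.02 against 0.01 for Telmisartan+LPS against LPS and 0.01 against 0.01 for Telmisartan+LPS against Telmisartan.

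The carnitine shuttle carries long-chain acyl groups across the mitochondrial membranes. Its rate-limiting enzyme Cpt1a, a standard PPAR target, read 6.80, 6.92 and 6.74 (log2) on the DMSO arrays and 6.71, 6.75 and 6.95 on the LPS arrays. It read 6.99, 6.77 and 6.97 with Telmisartan and 6.99, 7.01 and 6.96 with Telmisartan+LPS. All 3 Telmisartan+LPS arrays lay above all 3 LPS arrays, whereas the Telmisartan and DMSO arrays overlapped. The difference was 0.18 (SE 0.08, 95% interval 0.00 to 0.37, limma adjusted p = 0.5089) with LPS and 0.09 (95% interval -0.09 to 0.27, limma adjusted p = 0.9632) without it. The latter was 0.05 when Telmisartan replicate 1 was left out and 0.16 when replicate 2 was. Averaged over both states it was 0.14 (SE 0.06, limma unadjusted p = 0.04029, adjusted p = 0.6623), which made Cpt1a the only one of the 31 genes with an unadjusted p under 0.05 for the averaged drug effect, where 7.32% of all genes had one.

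The other members of the shuttle were Cpt2, which re-forms acyl-CoA inside the mitochondrion, and Slc25a20, the carnitine-acylcarnitine carrier. Their differences with telmisartan were 0.10 and 0.00 without LPS and 0.03 and 0.06 with it. All 3 shuttle genes thus had positive estimates in both LPS states, and none was called. The estimate for Slc25a20 without LPS was only 0.0033. With LPS, 11902 of 22180 genes had positive estimates, and centring arrays on their median shifted that comparison by -0.023. Averaged telmisartan estimates were positive for the 3 shuttle genes and also for the 3 genes Eci1, Eci2 and Decr1 described below. In the separate comparisons the intervals reached at most 0.24 for Cpt2 and 0.24 for Slc25a20.

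Uptake and binding of fatty acids was represented by 4 genes. Cd36, the scavenger receptor that takes up long-chain fatty acids and is a known PPAR gamma target in macrophages, read 9.41, 9.30 and 9.37 with DMSO and 9.37, 9.38 and 9.37 with LPS. It read 9.37, 9.33 and 9.24 with Telmisartan and 9.20, 9.50 and 9.28 with Telmisartan+LPS. The ranges overlapped in every pairing. The telmisartan difference was -0.05 both without LPS (95% interval -0.22 to 0.12) and with it (95% interval -0.22 to 0.12), and the LPS difference was 0.01 in either drug state.

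Fabp4, a fatty acid binding protein of adipocytes and macrophages that is also a PPAR gamma target, ran from 8.86 to 9.50 over the 12 arrays. Its telmisartan differences were 0.13 without LPS (95% interval -0.17 to 0.42) and -0.15 with it (95% interval -0.45 to 0.14). Fabp3, the heart-type binding protein, had telmisartan differences of -0.13 and 0.18 in the same order. A second and dimmer Fabp3 feature, with a mean of 4.03 against 9.80 for the one used, gave -0.02 and -0.02.

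Slc27a1, a fatty acid transporter with acyl-CoA synthetase activity, had the smallest adjusted p among the 31 genes for Telmisartan against DMSO and for the interaction. Its levels were 9.32, 9.59 and 9.51 with DMSO and 9.32, 9.29 and 9.29 with LPS. They were 9.31, 9.23 and 9.32 with Telmisartan and 9.38, 9.54 and 9.42 with Telmisartan+LPS. Only the DMSO replicate 1 array kept the DMSO range from standing clear of both single treatments, while the Telmisartan+LPS arrays lay above those of either single treatment. The difference was -0.19 for Telmisartan against DMSO (SE 0.08, limma unadjusted p = 0.03178, adjusted p = 0.8777) and -0.17 for LPS against DMSO (SE 0.08, limma unadjusted p = 0.04373, adjusted p = 0.5381). The interaction was 0.33 (SE 0.11, 95% interval 0.10 to 0.57, limma unadjusted p = 0.009538) and did not pass adjustment over all genes (limma adjusted p = 0.6038).

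For the interaction, 4 of 31 genes had an unadjusted p under 0.05 (Slc27a1, Fabp3, Ehhadh and Acaa2), against 7.78% of all genes. Slc27a1, Fabp3 (0.31) and Acaa2 (0.30) had positive interactions and Ehhadh a negative one (-0.36). None was called.

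**Figure D2:**
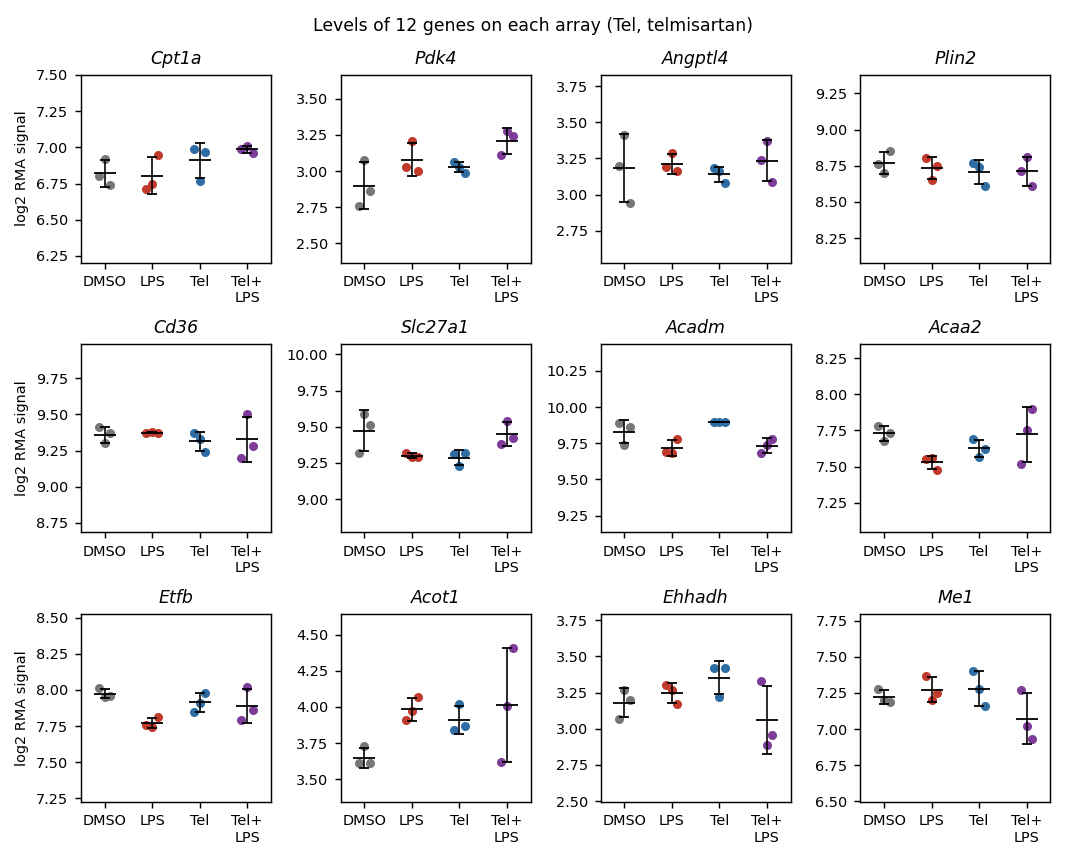
Points are the log2 RMA signals of 12 genes on each of 3 arrays per treatment; the horizontal mark and bar are the mean and SD, and every panel spans the same height of 1.3 log2 units. The treatments overlap for Plin2, Cd36 and Angptl4, while Etfb lies lower on the LPS than on the DMSO arrays and Acot1 higher.

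The acyl-CoA dehydrogenases start each round of oxidation. Acadm, which handles medium chains, had the smallest adjusted p of the group for the averaged LPS effect. Its levels were 9.89, 9.74 and 9.86 with DMSO and 9.69, 9.68 and 9.78 with LPS, and these ranges overlapped. They were 9.90 on all 3 Telmisartan arrays and 9.68, 9.74 and 9.78 with Telmisartan+LPS, which did not overlap. The LPS difference was -0.11 without telmisartan and -0.17 with it, and averaged -0.14 (SE 0.05, 95% interval -0.24 to -0.04, limma unadjusted p = 0.0097, adjusted p = 0.2109).

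Acadl, for long chains, read 5.13, 5.15 and 5.00 with DMSO, 5.26, 4.96 and 4.92 with LPS, 5.33, 5.09 and 5.10 with Telmisartan and 4.84, 5.02 and 4.93 with Telmisartan+LPS. All Telmisartan+LPS arrays lay below all Telmisartan arrays, with a difference of -0.24 (SE 0.10, limma unadjusted p = 0.03019, adjusted p = 0.3123). Acads, for short chains, had an LPS difference of 0.18 without telmisartan (SE 0.08, limma adjusted p = 0.5085) and 0.05 with it. Acadvl, for very long chains, differed by 0.00 and 0.11 in the same comparisons. The 4 dehydrogenases did not share a direction with LPS in either drug state.

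The later steps are carried out by hydratases, hydroxyacyl-CoA dehydrogenases and thiolases. Hadha and Hadhb, the subunits of the trifunctional protein, are neighbouring genes in the GRCm38.p6 annotation. Hadha stayed between 9.96 and 10.09 over the 12 arrays. Hadhb read 5.64, 5.65 and 5.58 with DMSO, 5.86, 5.39 and 5.62 with LPS, 5.36, 5.42 and 5.53 with Telmisartan and 5.74, 5.39 and 5.84 with Telmisartan+LPS. Telmisartan arrays lay below DMSO arrays for Hadhb (difference -0.19, 95% interval -0.45 to 0.08, limma adjusted p = 0.9429), and its replicates were widest in both LPS-treated groups.

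Acaa2, the mitochondrial thiolase, read 7.78, 7.68 and 7.73 with DMSO and 7.55, 7.56 and 7.48 with LPS, with no overlap. It read 7.69, 7.57 and 7.62 with Telmisartan and 7.52, 7.75 and 7.90 with Telmisartan+LPS, the last being the widest of the 4 groups. The LPS difference was -0.20 without telmisartan (SE 0.09, limma unadjusted p = 0.03954, adjusted p = 0.5246) and 0.10 with it. Telmisartan+LPS exceeded LPS by 0.19 (SE 0.09, limma adjusted p = 0.5002). Leaving out Telmisartan+LPS replicate 3 gave 0.11, and leaving out replicate 1 gave 0.29.

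Ehhadh, the peroxisomal bifunctional enzyme and a classical PPAR alpha target in liver, was near background. It read 3.07, 3.27 and 3.20 with DMSO, 3.30, 3.27 and 3.17 with LPS, 3.42, 3.22 and 3.42 with Telmisartan and 3.33, 2.89 and 2.96 with Telmisartan+LPS. One Telmisartan+LPS array lay inside the Telmisartan range and the others lay below it. The difference of -0.29 (SE 0.11, 95% interval -0.53 to -0.06) had the smallest adjusted p of the group in that comparison (limma adjusted p = 0.2724). Leaving out Telmisartan+LPS replicate 1 gave -0.43, and leaving out replicate 2 gave -0.21. Acaa1a, a peroxisomal thiolase with the near-identical paralog Acaa1b, had LPS differences of 0.10 and 0.09 and is uncertain for that reason.

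Among the auxiliary enzymes that prepare unsaturated chains, Eci1 read 7.65, 7.69 and 7.70 with DMSO and 7.52, 7.57 and 7.48 with LPS, with no overlap. Eci1 thus differed by -0.16 with LPS (SE 0.07, limma adjusted p = 0.4968). In telmisartan cells Eci1 differed by -0.05 with LPS (limma adjusted p = 0.76), with overlapping groups. Eci2, its peroxisomal and mitochondrial relative, read 7.23, 7.32 and 7.11 with DMSO, 7.22, 7.48 and 7.16 with LPS, 7.57, 7.39 and 7.29 with Telmisartan and 7.30, 7.15 and 7.48 with Telmisartan+LPS. The treatments overlapped in every pairing, and the Telmisartan difference was 0.20 (95% interval -0.04 to 0.43), or 0.12 without Telmisartan replicate 1. Decr1, the mitochondrial dienoyl-CoA reductase, read 4.99, 5.08 and 4.94 with DMSO, 5.27, 5.36 and 5.00 with LPS, 5.14, 5.11 and 5.02 with Telmisartan and 4.97, 5.20 and 5.34 with Telmisartan+LPS. Its LPS difference of 0.21 (95% interval -0.02 to 0.43) came with overlapping groups, and was 0.13 without LPS replicate 2 and 0.31 without LPS replicate 3.

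Electron transfer from the dehydrogenases runs through Etfa and Etfb, the subunits of the electron transfer flavoprotein, and Etfdh, the oxidoreductase that hands the electrons to ubiquinone. All 3 had lower estimates with LPS in both drug states. Etfb read 8.01, 7.95 and 7.96 with DMSO and 7.76, 7.74 and 7.81 with LPS. It read 7.85, 7.91 and 7.98 with Telmisartan and 7.79, 8.02 and 7.86 with Telmisartan+LPS. The first pair of groups did not overlap and the second did. The LPS difference of Etfb was -0.20 without telmisartan (SE 0.07, 95% interval -0.36 to -0.05, limma unadjusted p = 0.01416, adjusted p = 0.4198) and -0.02 with it. For Etfa the LPS differences were -0.09 and -0.12, and for Etfdh -0.10 and -0.11. The averaged LPS effects were -0.11 for each of the 3, with limma adjusted p of 0.32 (Etfa), 0.3333 (Etfb) and 0.3968 (Etfdh), so the trio was not called.

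**Figure D3:**
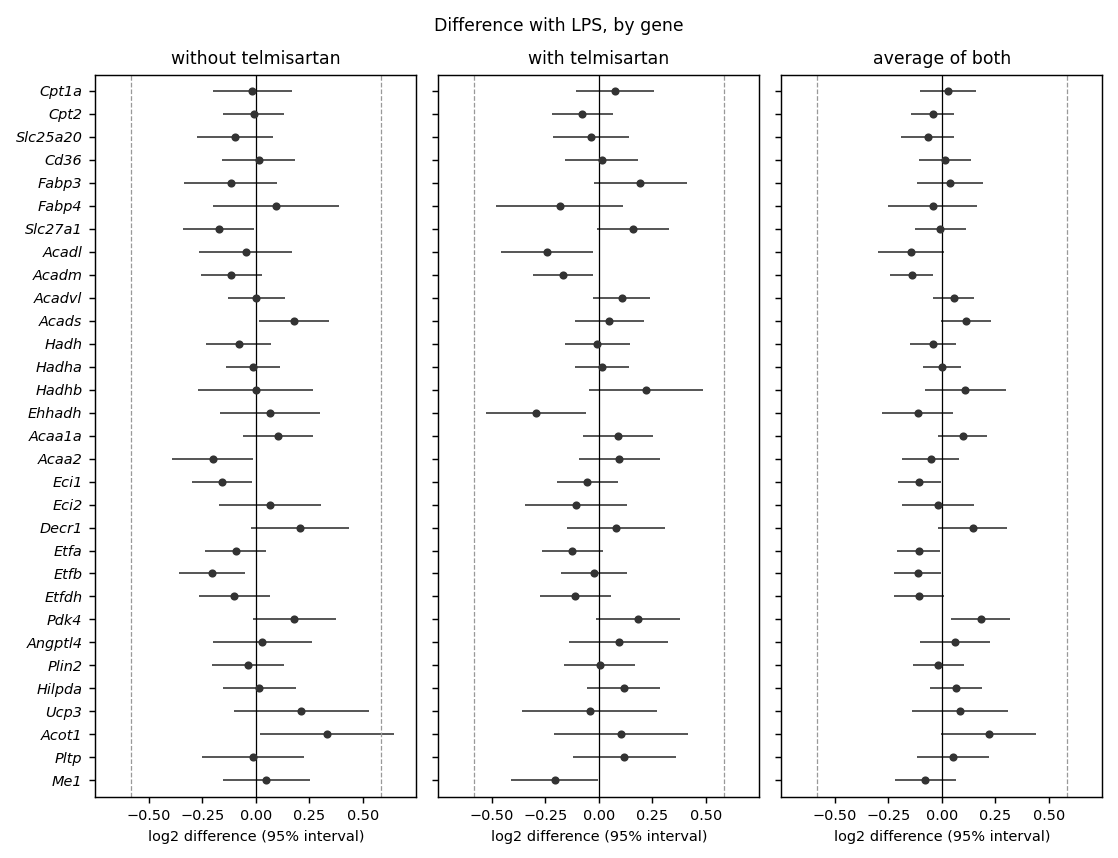
Points are log2 differences with LPS for the 31 genes without telmisartan, with it and averaged; bars are 95% intervals, the solid line is 0 and the dashed lines are 1.5-fold. Etfa, Etfb and Etfdh lie left of 0 in all panels, and the interval of Acot1 without telmisartan is the only one to cross a dashed line.

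The remaining 8 genes are regulated by PPARs but act outside the oxidation cycle. Plin2, which coats lipid droplets, read 8.76, 8.70 and 8.85 with DMSO, 8.80, 8.65 and 8.75 with LPS, 8.77, 8.74 and 8.61 with Telmisartan and 8.71, 8.81 and 8.61 with Telmisartan+LPS. All 4 ranges overlapped. The telmisartan differences were -0.06 (95% interval -0.23 to 0.10) and -0.02 (95% interval -0.19 to 0.14). Hilpda, an inhibitor of adipose triglyceride lipase, gave -0.12 and -0.02 for the same comparisons.

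Pdk4, a kinase that inhibits pyruvate dehydrogenase and so spares glucose, was near background. It read 2.76, 3.08 and 2.86 with DMSO and 3.03, 3.21 and 3.00 with LPS, and 3.06, 3.03 and 2.99 with Telmisartan and 3.11, 3.28 and 3.24 with Telmisartan+LPS. The Telmisartan+LPS arrays lay above the Telmisartan arrays, and the LPS and DMSO arrays overlapped. The LPS difference was 0.18 in each drug state, and the averaged effect was 0.18 (SE 0.06, limma unadjusted p = 0.0134, adjusted p = 0.23). Without telmisartan the LPS difference of Pdk4 depended on the DMSO arrays, being 0.11 without DMSO replicate 1 and 0.27 without DMSO replicate 2. The averaged telmisartan effect was 0.13 (95% interval -0.01 to 0.27, limma adjusted p = 0.7204).

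Angptl4, a secreted inhibitor of lipoprotein lipase and among the most responsive PPAR targets in many cell types, was also near background. It read 3.20, 3.41 and 2.94 with DMSO, 3.19, 3.29 and 3.16 with LPS, 3.18, 3.16 and 3.08 with Telmisartan and 3.24, 3.37 and 3.09 with Telmisartan+LPS. The DMSO arrays alone spanned the range of all others. The telmisartan differences were -0.04 (95% interval -0.28 to 0.19) and 0.02 (95% interval -0.21 to 0.25).

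Acot1, a cytosolic acyl-CoA thioesterase, had the largest differences from DMSO of the 31 genes and was near background. It read 3.61, 3.73 and 3.61 with DMSO and 3.91, 3.97 and 4.07 with LPS. It read 3.84, 4.02 and 3.87 with Telmisartan and 3.62, 4.01 and 4.41 with Telmisartan+LPS. Both single treatments lay above DMSO without overlap, and the combined treatment ran from the DMSO range to above all other arrays. The difference was 0.33 with LPS (SE 0.15, limma unadjusted p = 0.03941, adjusted p = 0.524) and 0.26 with Telmisartan (SE 0.15, limma adjusted p = 0.9376). Its near-identical mitochondrial paralog Acot2, which is well above background, differed by 0.28 (SE 0.09, limma adjusted p = 0.3446) and 0.23 (SE 0.09, limma adjusted p = 0.8777). Signals of the 2 paralogs may not be separate, so these are not independent measurements.

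Ucp3 was near background and read 3.08, 2.90 and 2.95 with DMSO, 3.05, 3.40 and 3.12 with LPS, 3.17, 3.24 and 2.93 with Telmisartan and 2.90, 2.86 and 3.45 with Telmisartan+LPS. Its groups overlapped, and the LPS difference of 0.21 (95% interval -0.10 to 0.53) was 0.11 without LPS replicate 2. Pltp, the phospholipid transfer protein of plasma, was near background as well and read 3.52, 3.26 and 3.39 with DMSO, 3.36, 3.41 and 3.36 with LPS, 3.31, 3.38 and 2.89 with Telmisartan and 3.29, 3.35 and 3.30 with Telmisartan+LPS. The Telmisartan difference of Pltp was -0.20 with all arrays and -0.05 without Telmisartan replicate 3. Me1, the cytosolic malic enzyme that supplies NADPH, read 7.28, 7.20 and 7.19 with DMSO, 7.37, 7.20 and 7.25 with LPS, 7.40, 7.28 and 7.16 with Telmisartan and 7.27, 7.02 and 6.93 with Telmisartan+LPS. The last group overlapped each other group. It was lower than LPS by a difference of -0.20 (SE 0.09, limma adjusted p = 0.5113) and lower than Telmisartan by -0.21 (SE 0.09, limma adjusted p = 0.3562), and the difference from LPS was -0.30 without its replicate 1 and -0.13 without its replicate 3. The difference from Telmisartan was -0.14 without that replicate 3.

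**Figure D4:**
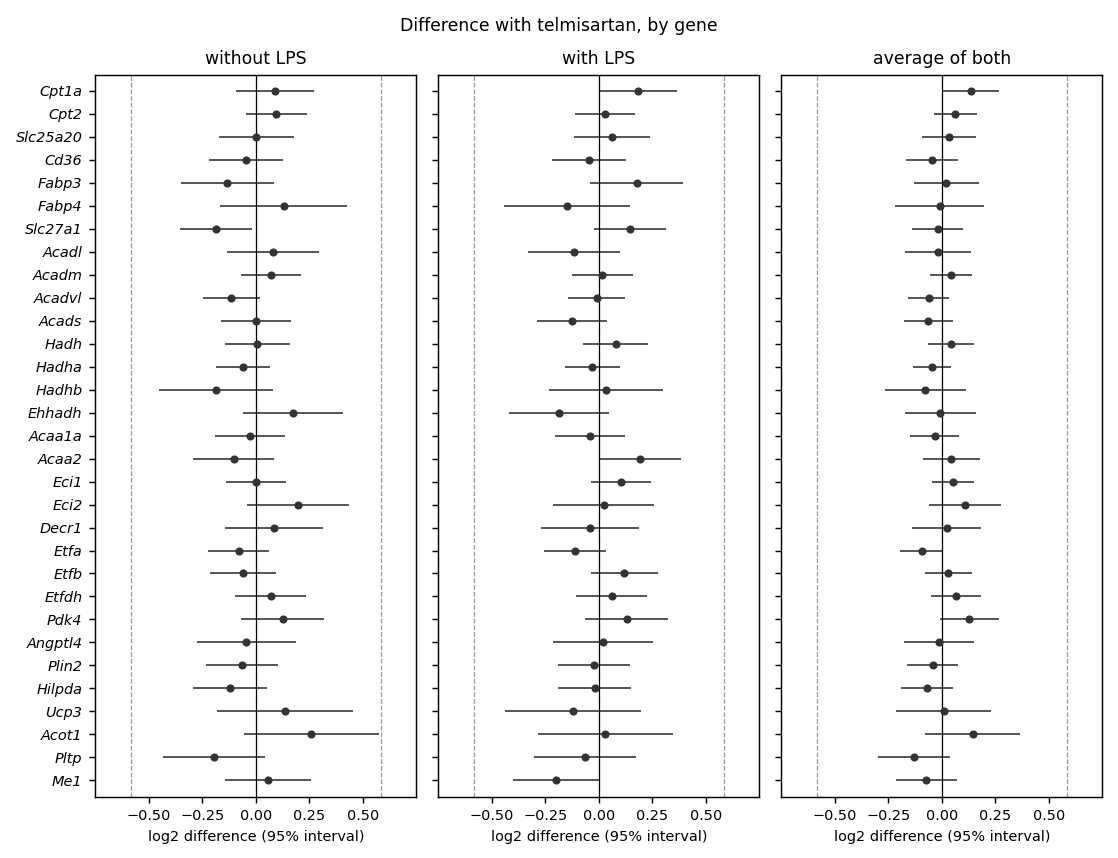
Points are log2 differences with telmisartan for the 31 genes without LPS, with it and averaged; bars are 95% intervals, the solid line is 0 and the dashed lines are 1.5-fold. Every interval lies between the dashed lines, and estimates lie on both sides of 0 in each panel.

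Counts below the calling threshold were read against all genes. For LPS against DMSO, 6 of 31 genes had an unadjusted p under 0.05 (Acads and Acot1 with higher levels, Slc27a1, Acaa2, Eci1 and Etfb with lower ones), against 9.02% of all genes. Of these counts it lies farthest above the share of all genes, and it was given no test of its own. The corresponding count was 1 for Telmisartan against DMSO (Slc27a1), against 5.51%. It was 2 for Telmisartan+LPS against LPS (Cpt1a and Acaa2), against 9.81%, and 4 for Telmisartan+LPS against Telmisartan (Acadl, Acadm, Ehhadh and Me1, all with lower levels), against 13.6%. For the averaged LPS effect it was 5 (Acadm, Eci1, Etfa and Etfb with lower levels and Pdk4 with a higher one), against 14.4%.

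Groups whose arrays did not overlap were seen for 5 of 31 genes in LPS against DMSO (Acads, Acaa2, Eci1, Etfb and Acot1), where 15.7% of all genes had none. They were seen for 5 in Telmisartan against DMSO (Fabp3, Acadm, Acadvl, Hadhb and Acot1), against 11.4%, and for 5 in Telmisartan+LPS against LPS (Cpt1a, Slc27a1, Eci1, Etfa and Pltp), against 13%. In Telmisartan+LPS against Telmisartan the count was 6 (Slc27a1, Acadl, Acadm, Acadvl, Etfa and Pdk4), against 17%. These shares lie near those of all genes. The comparisons share control arrays in pairs, so their counts are not independent of each other.

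The promoters of the group were searched for the PPAR response element, which consists of 2 AGGTCA elements in the same orientation with 1 base between them. RefSeq windows from 250 bases before to 50 bases after a transcription start (GRCm38.p6) were held for 27 of the 31 genes, as 31 windows, and both strands were read. Acaa2, Angptl4, Decr1 and Fabp4 had no window and were not searched. No window held the exact element, which 0.04% of 32851 windows of all genes hold. With up to 2 mismatches at its 12 fixed letters, 5 of 31 windows held it (Cd36, Etfa, Plin2, Slc25a20 and Ucp3), 16.1% against 3.86% of all windows. A single AGGTCA was in 6 windows (Acadm, Acadvl, Cd36, Cpt1a, Plin2 and Ucp3), 19.4% against 16.3%. It lies inside the near-complete repeat in Plin2 and apart from it in Cd36, and Ucp3 has a copy in each position. The hypoxia element ACGTG was in 5 (Acadvl, Hilpda, Me1, Plin2 and Slc27a1), 16.1% against 19.6%, and the NF-kB consensus in 1 (Etfa), 3.23% against 4.50%. Matching letters are a description and show no binding.

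Stretches around the match are shown for the 4 genes whose near-complete repeat lies before the transcription start, since Plin2 and Cd36 are standard PPAR targets and Etfa and Ucp3 are the oxidation and uncoupling genes beside them, and for Cpt1a, whose averaged telmisartan estimate had the smallest p. Capitals mark the match, read on the gene's strand 5′ to 3′, and each sequence is from RefSeq, GRCm38.p6.
Plin2, chr4:86670232-86670309, minus strand, match opposite to the gene: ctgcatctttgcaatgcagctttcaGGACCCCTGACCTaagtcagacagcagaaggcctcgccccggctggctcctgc
Cd36, chr5:17835907-17835999, minus strand, match opposite to the gene: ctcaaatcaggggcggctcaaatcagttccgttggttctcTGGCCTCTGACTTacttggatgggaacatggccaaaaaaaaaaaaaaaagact
Etfa, chr9:55512268-55512360, minus strand, match opposite to the gene: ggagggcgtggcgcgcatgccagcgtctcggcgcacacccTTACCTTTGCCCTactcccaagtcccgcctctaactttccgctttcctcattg
Ucp3, chr7:100472900-100472992, plus strand, match in the gene's direction: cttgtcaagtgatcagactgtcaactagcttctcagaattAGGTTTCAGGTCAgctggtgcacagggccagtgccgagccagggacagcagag
Cpt1a, chr19:3323167-3323252, plus strand, single AGGTCA opposite to the gene: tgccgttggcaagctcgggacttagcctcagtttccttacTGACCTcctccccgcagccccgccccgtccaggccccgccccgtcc
The match begins 225 bases before the start in Plin2, 63 in Cd36, 77 in Etfa, 51 in Ucp3 and 94 in Cpt1a. In Slc25a20, which is not shown, it begins 7 bases after the start, in transcribed sequence. The Etfa stretch lies upstream of the annotated gene, and that of Ucp3 ends at the first bases of its gene. That of Plin2 also lies upstream of the annotated gene, but its distance is counted from a start inside the gene. Those of Cd36 and Cpt1a lie at a start inside the annotated gene. None of these genes was called in any comparison. The averaged telmisartan estimates were -0.04 for Plin2, -0.05 for Cd36, -0.10 for Etfa, 0.01 for Ucp3, 0.03 for Slc25a20 and 0.14 for Cpt1a.

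Neighbouring pathways were read from 6 further lists with 80 measured genes: peroxisomal oxidation (14), other mitochondrial oxidation (17), PPAR receptors and coregulators (12), lipid droplets and lipolysis (14), fatty acid synthesis (13) and the pyruvate dehydrogenase complex with its regulators (10). None of the 80 was called in any of the 7 comparisons. Their median differences were -0.03 for LPS against DMSO, 0.01 for Telmisartan against DMSO, 0.04 for Telmisartan+LPS against LPS and -0.01 for Telmisartan+LPS against Telmisartan.

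Pparg, the receptor that telmisartan activates in part, was near background and read 3.06, 3.14 and 3.33 with DMSO, 3.06, 3.20 and 3.14 with LPS, 3.12, 3.38 and 3.13 with Telmisartan and 3.26, 3.08 and 3.29 with Telmisartan+LPS. The ranges overlapped, with telmisartan differences of 0.03 (95% interval -0.17 to 0.24) and 0.08 (95% interval -0.13 to 0.28). Ppara was near background too, with group means of 3.53 to 3.73, while Ppard was above it, with group means of 6.83 to 7.02. The telmisartan differences of Ppard were 0.10 without LPS and 0.06 with it, and it was not called. Rxra, a partner of the PPARs, and Ppargc1b, a coactivator of oxidative metabolism, had the largest differences of their list for Telmisartan against DMSO. These were -0.20 (limma adjusted p = 0.8718) and -0.23 (limma adjusted p = 0.8769). For Telmisartan+LPS against LPS they were 0.07 for Rxra and -0.06 for Ppargc1b.

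Acad12, of the other mitochondrial oxidation list, had the largest difference of the 80 for Telmisartan+LPS against LPS. It was 0.36 (SE 0.10, limma adjusted p = 0.3471) without overlap, and 0.08 for Telmisartan against DMSO. Its group means of 3.93 to 4.29 lay around the background level. Cidec, of the lipid droplet list and near background, had telmisartan differences of 0.24 without LPS (limma adjusted p = 0.8777) and 0.02 with it. Dgat1, which makes triglyceride from diacylglycerol, had the largest difference of the 80 for LPS against DMSO. It read 6.37, 6.32 and 6.46 with DMSO and 6.09, 5.96 and 6.12 with LPS, without overlap, and the difference was -0.33 (SE 0.08, 95% interval -0.50 to -0.15, limma adjusted p = 0.1548). With telmisartan present the LPS difference of Dgat1 was 0.02, and the interaction of 0.35 did not pass the test (limma adjusted p = 0.6038). Crot, the peroxisomal carnitine octanoyltransferase, read 7.39, 7.32 and 7.38 with Telmisartan and 6.94, 7.28 and 6.97 with Telmisartan+LPS. The difference was -0.30 (SE 0.09, limma adjusted p = 0.1944). For LPS against DMSO the difference of Crot was -0.13 (limma adjusted p = 0.7166), with overlapping groups. Plin5, a lipid droplet protein of oxidative tissues, had telmisartan differences of -0.25 without LPS and -0.28 with it, with no overlap in either case. The averaged effect was -0.27 (95% interval -0.42 to -0.11, limma adjusted p = 0.5363). Plin5 read 4.66, 4.80 and 4.84 with DMSO and 4.65, 4.65 and 4.24 with Telmisartan. Without LPS these ranges thus nearly met, and Telmisartan replicate 3 was by far the lowest array.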

How the data were processed

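BV2 cells were measured on 12 Affymetrix mouse gene arrays, 3 for each of 4 treatments. The deposited values are log2 signals that the authors made by RMA in Affymetrix Expression Console (engine 1.4.1.46), with background correction and quantile normalization, per the file headers. The summary table (2 decimals) was used and the series matrix (5 decimals, differing by at most 0.005) was an alternative; 0 columns belonged to other samples. Of 41345 features, 23521 had 1 gene symbol, 1820 several and 16004 none in the platform annotation. Symbols were updated through Entrez identifiers for 23328 and 193 kept the platform's. The brightest feature stood for each gene, giving 22180 genes.

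One linear model with 4 group means was fitted to all arrays (limma 3.58.1, R 4.3.3, 8 residual and 4.99 prior degrees of freedom), with two-sided moderated tests, Benjamini-Hochberg adjustment over all genes, a threshold of 0.05 and no fold minimum. The fit was tested on simulated data. Arrays have no read depth, and their number limits precision.

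The gene list, the comparison lists and the tests were chosen with earlier results of these data known. Values on each array are given for the 4 genes with the largest absolute difference in each of the 4 comparisons between treatments and for Cpt1a, Pdk4, Angptl4, Plin2 and Cd36; from each neighbouring list, genes named come from those with the 2 largest differences in a comparison. The arrays given for Acadm, Eci1 and Pparg, the values of Ppara and Ppard, and the naming of Acot2 as a paralog, were chosen after their values were seen. Alternatives were the series matrix, a mean over features, dim genes left out, arrays centred on their median, array weights, trend and robust options, only the groups compared, each array left out and, chosen after seeing the data, a block for sets of arrays with consecutive title numbers.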

Additional observations from a re-analysis of the deposited data

How the results depend on the processing

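No member was called under any of 20 alternatives, over 144 counts that include those reported; the smallest adjusted p was 0.0639 (limma with trend and robust options, Acadm, averaged LPS effect). Of 874 alternative values of 45 named differences, 852 kept their direction and 22 reversed, and none passed the threshold. Centring each array on its median, which shifted differences by at most 0.06, turned Cd36 (LPS against DMSO) to -0.017, Angptl4 (Telmisartan+LPS against LPS) to -0.003, and Plin2 and Cd36 (Telmisartan+LPS against Telmisartan) to -0.057 and -0.047. The other reversals came from leaving out an array, with ranges for LPS against DMSO of -0.09 to 0.033 (Cpt1a), -0.092 to 0.143 (Angptl4), -0.072 to 0.005 (Plin2) and -0.017 to 0.038 (Cd36). In Telmisartan against DMSO the range was -0.165 to 0.07 for Angptl4, and without reversal -0.098 to -0.015 for Plin2 and -0.077 to -0.01 for Cd36. In Telmisartan+LPS against LPS the ranges were -0.048 to 0.092 (Angptl4), -0.073 to 0.027 (Plin2) and -0.133 to 0.017 (Cd36), and in Telmisartan+LPS against Telmisartan -0.047 to 0.053 (Plin2) and -0.073 to 0.077 (Cd36). All these differences were near 0.

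Counts over all 22180 genes moved more. With trend and robust options they were 14 in Telmisartan+LPS against LPS (0 reported), 164 in Telmisartan+LPS against Telmisartan (58 reported), 1 in the interaction (0 reported), 12 for the averaged telmisartan effect (1 reported) and 281 for the averaged LPS effect (148 reported). With dim genes left out, which keeps 11090 genes and 25 of the 31 members, they were 149, 1, 9 and 312 in the last 4 of these. Fitting only the groups compared gave 35 in Telmisartan+LPS against Telmisartan, and centring gave 230 for the averaged LPS effect. The cause was not tested. Leaving out an array gave 66 to 105 for LPS against DMSO, 0 to 5 for Telmisartan+LPS against LPS, 31 to 66 for Telmisartan+LPS against Telmisartan, 0 to 3 for the interaction, 0 to 1 for the averaged telmisartan effect and 97 to 158 for the averaged LPS effect. The labels name no pairs, but the running numbers in the titles pass through the 4 treatments in the same order 3 times. A replicate block for these sets of 4 arrays, an alternative chosen after seeing the data, left 6 residual degrees of freedom and called 0 members in every comparison (smallest limma adjusted p 0.201, Pdk4, averaged LPS effect). With the replicate block the counts over all genes were 91 for LPS against DMSO (95 reported), 54 for Telmisartan+LPS against Telmisartan, 131 for the averaged LPS effect and 0 for the averaged telmisartan effect (1 reported). Deviations from the group means correlated at -0.047 to 0.081 between arrays of the same set and at -0.073 to 0.073 between arrays of different sets, and 5 of 12 arrays correlated best with their own set, so the sets were not treated as pairs. Signals near background limit what can be seen for Ehhadh, Pdk4, Angptl4, Ucp3, Acot1 and Pltp.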
